A study of Mus musculus with 6 samples.

Results

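The proliferin genes *Prl2c2*, *Prl2c3* and *Prl2c5* encode hormones of the prolactin family. The table of this study holds 1 entry for each of them, 3 of 37753 entries with expression values, and every entry that carried any of these 3 symbols was kept. They were chosen by their measured FPKM difference between JNK-deficient tumor cells and primary cells in these same libraries. That difference is therefore given as a description and was not tested.

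The 6 RNA-seq libraries represent 3 primary cultures of mammary epithelium (MEC) and 3 tumor cell lines (MEKO), 1 library per culture or line. MEC came from C57/Bl6J mice of the genotype WAPCre+, which carry the Cre recombinase but no deleted gene, and each culture combined cells of 3 to 5 virgin females that were 10 to 12 weeks old. The MEKO lines 199, 233 and 336 have the genotype Mapk8KO Mapk9KO Cre+. In them Wap-Cre, which is active in luminal mammary epithelium and is driven by a milk protein promoter, deleted *Mapk8* and *Mapk9*, the genes of the kinases JNK1 and JNK2. Both groups carry Cre. Each line was grown out of a tumor, kept on collagen I for 2 passages and then on uncoated plastic. MEC stayed on collagen I in medium with 5% serum, EGF and insulin. Per the study's methods the lines also had serum, at a lower percentage than MEC when first plated and a higher one on plastic. Those methods name no EGF or insulin for routine culture of the lines. Per the study all mice had the same strain background. Tumor mice were bred and then watched for tumors after weaning, so MEKO donors were parous and older than MEC donors. Genotype, tumor origin, donor age and parity, culture and time in culture change together between the groups and cannot be told apart.

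Proliferins are made mainly by the trophoblast giant cells of the placenta and pass into the maternal blood during pregnancy. They are known to promote blood vessel growth, and they bind the receptor for IGF2 and mannose 6-phosphate, encoded by *Igf2r*. The same genes were found to be induced by serum and growth factors in cultured mouse fibroblasts, and a control element in front of a proliferin gene is a classic example of a site where AP-1 and the glucocorticoid receptor act together. *Prl7d1* encodes proliferin-related protein, a relative that inhibits vessel growth.

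The 3 genes lie beside each other on chromosome 13 of GRCm38. *Prl2c3* (ENSMUSG00000056457.6) spans chr13:12790816-12800079 on the minus strand, *Prl2c2* (ENSMUSG00000079092.4) spans chr13:12996125-13005383 on the minus strand, and *Prl2c5* (ENSMUSG00000055360.13) spans chr13:13182715-13191923 on the plus strand. The other prolactin family genes of the table lie on the same chromosome, and *Prl7d1* (ENSMUSG00000021348.3) spans chr13:27706337-27716736 on the minus strand. How far these genes can be measured apart depends on their sequence, so a stretch of 150 bases of coding sequence, the length of a read before trimming, is shown for each. It covers coding bases 192 to 341 from exon 2 to exon 4, between chr13:12792149-12796846 for *Prl2c3*, chr13:12997442-13002149 for *Prl2c2* and chr13:13185950-13190611 for *Prl2c5*, read 5′ to 3′ from the GENCODE transcripts, with capitals at bases that differ from *Prl2c3*:
Prl2c3: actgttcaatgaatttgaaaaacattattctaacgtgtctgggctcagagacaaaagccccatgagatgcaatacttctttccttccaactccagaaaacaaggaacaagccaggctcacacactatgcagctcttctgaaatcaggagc
Prl2c2: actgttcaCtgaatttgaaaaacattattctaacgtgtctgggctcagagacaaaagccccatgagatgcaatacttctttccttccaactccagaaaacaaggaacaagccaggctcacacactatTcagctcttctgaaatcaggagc
Prl2c5: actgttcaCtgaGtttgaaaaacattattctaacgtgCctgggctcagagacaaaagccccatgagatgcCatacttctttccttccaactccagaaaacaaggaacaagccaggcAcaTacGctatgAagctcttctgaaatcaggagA
This stretch holds 2 differences between *Prl2c2* and *Prl2c3* and 9 between *Prl2c5* and *Prl2c3*.

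Over the whole coding sequence of 672 bases, *Prl2c2* and *Prl2c3* differed at 3 bases, and each of the 3 changed a residue of the protein of 224 residues. Over the first 498 coding bases, where all 3 genes have equal exon lengths, those differences fell at positions 14, 200 and 319. *Prl2c5* differed from *Prl2c3* at 17 bases of the same 498 and at 21 positions of the protein. The 2 near-identical genes offer few bases by which a read can be assigned: of the 708 stretches of 150 bases in the *Prl2c3* transcript, 353 (49.9%) were present without any difference in *Prl2c2*, and 98.2% were present with up to 2 differences. Each stretch stands for a single read. The mate in a read pair, which can cover another differing base, was not taken into account. None of the 695 stretches of *Prl2c5* matched *Prl2c3* or *Prl2c2* with up to 2 differences, and 13.5% of them matched the relative *Prl2c1*. A read shortened to 40 bases carries less: 21% of such stretches of *Prl2c5* were present in *Prl2c3* and 26.5% in *Prl2c2*. How reads that match several genes were divided among them is not given in the sources used here, so the split between *Prl2c2* and *Prl2c3* is uncertain, and their summed level is given beside each. Neither *Prl2c2*, *Prl2c3* nor *Prl2c5* shared a stretch of 150 bases, with up to 2 differences, with *Prl7d1*, whose transcript was 58.6% identical to that of *Prl2c3*.

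**Figure D1:**
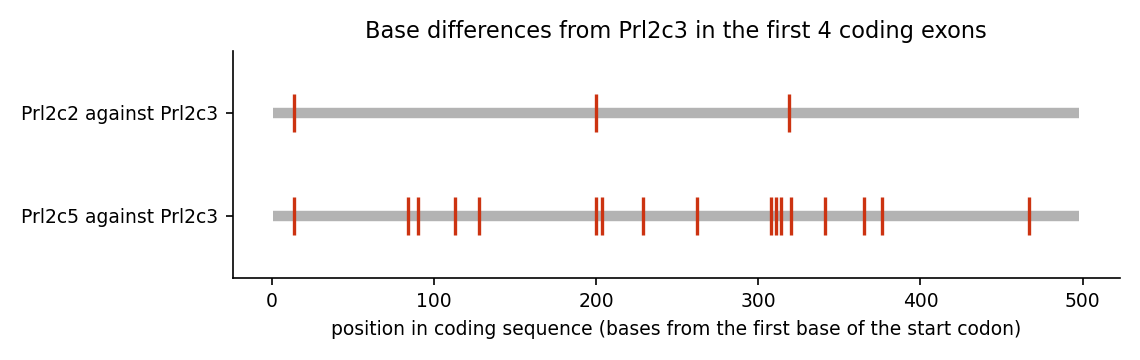
Positions of single-base differences from *Prl2c3* along the coding sequence, in bases from the first base of the start codon, for *Prl2c2* (upper bar) and *Prl2c5* (lower bar). The grey bars are the 498 coding bases compared and each red mark is 1 difference, 3 for *Prl2c2* and 17 for *Prl2c5*.

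The proliferin genes were under 1 FPKM in each MEC library and higher in each MEKO line, with *Prl2c3* and *Prl2c2* far above *Prl2c5*. Levels are in FPKM, fragment numbers scaled to transcript length and library size, so that levels of different genes can be set side by side. *Prl2c3* was at 0.158, 0.733 and 0.46 FPKM in MEC 1, 2 and 3, and at 154, 1637 and 1139 FPKM in MEKO lines 199, 233 and 336. *Prl2c2* was at 0.23, 0 and 0.272 FPKM in MEC, and at 126, 1247 and 575 FPKM in the lines. *Prl2c5* was at 0.0809, 0 and 0 FPKM in MEC, and at 5.62, 61.6 and 24.1 FPKM in the lines. For all 3 genes each line was above each MEC library, line 233 was highest and line 199 lowest.

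On the scale of log2(FPKM + 1), the difference of means, MEKO minus MEC, was 8.85 for *Prl2c3*, 8.60 for *Prl2c2* and 4.41 for *Prl2c5*. The SD between the 3 lines on that scale was 1.83, 1.67 and 1.63, and that between the 3 MEC libraries was 0.29, 0.19 and 0.06. By this difference *Prl2c3* and *Prl2c2* stood at ranks 1 and 2 of the 12461 entries with a mean of at least 1 FPKM, and *Prl2c5* at rank 17. These are the values for which the genes were chosen. Of the 12461 entries, 18.5% had each MEKO line above each MEC library.

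**Figure D2:**
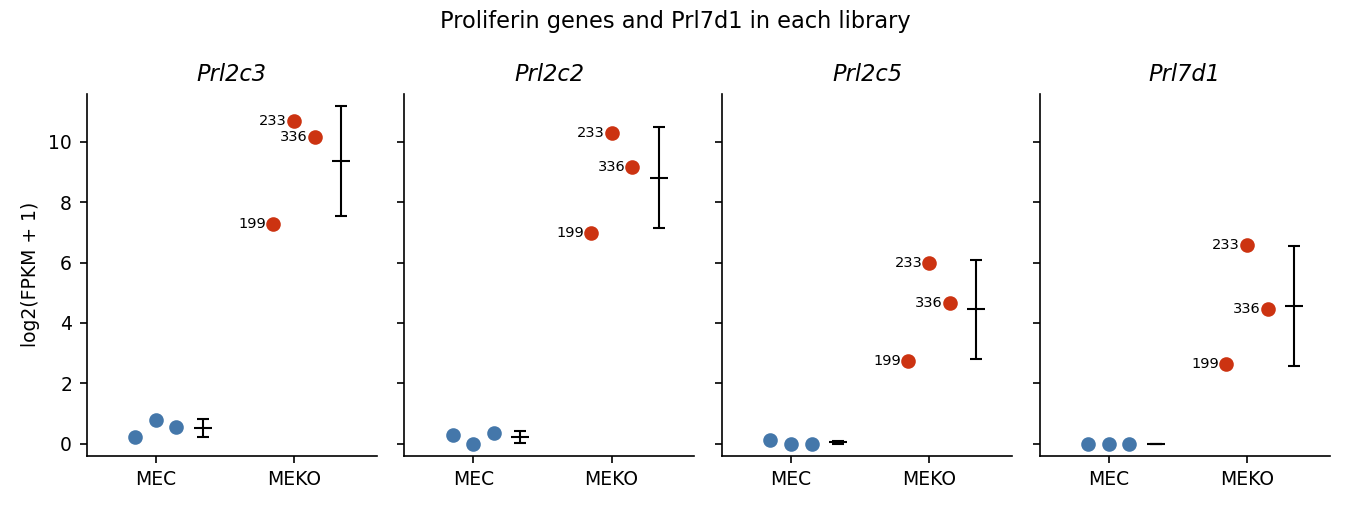
Level of *Prl2c3*, *Prl2c2*, *Prl2c5* and *Prl7d1* as log2(FPKM + 1) in each MEC library (blue) and MEKO line (red, labelled by line). The black marks give the mean and SD of 3 libraries, and in each panel line 233 is highest, line 199 is lowest of the lines, and the MEC libraries lie near 0.

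Together the 3 entries reached 286 FPKM in line 199, 2945 FPKM in line 233 and 1738 FPKM in line 336, against 0.469, 0.733 and 0.731 FPKM in MEC 1, 2 and 3. Their sum was 390, 4017 and 2371 times the highest MEC library in lines 199, 233 and 336. They held 0.0512%, 0.513% and 0.311% of the summed FPKM of these lines. *Prl2c3* was the entry of rank 20 by level in line 233 and of rank 38 in line 336, but of rank 503 in line 199. The sum was 10.3-fold higher in line 233 than in line 199 and 1.69-fold higher in line 233 than in line 336. With 1 library per line, this order of the lines has no replicate check.

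The 3 genes kept the same order of shares in lines of very different level, with a wider gap between *Prl2c3* and *Prl2c2* in line 336. *Prl2c3* made up 53.8%, 55.6% and 65.5% of the sum in lines 199, 233 and 336, and *Prl2c2* made up 44.2%, 42.3% and 33.1%. *Prl2c5*, the member that reads of full length can tell from the other two, made up 1.97%, 2.09% and 1.38%. The ratio of *Prl2c3* to *Prl2c2* was 1.22, 1.31 and 1.98 in the same order, a split that depends on how shared reads were divided.

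The low MEC values were set beside the lowest values of the table. Among entries whose longest transcript has 800 to 1000 bases, the lowest 5% of values above 0 were at or under 0.0237 to 0.0395 FPKM, depending on the library. The single MEC value of *Prl2c5*, 0.0809 FPKM, was close to that value in MEC 1, 0.0317 FPKM. The MEC values of *Prl2c3*, from 0.158 to 0.733 FPKM, and those of *Prl2c2* in MEC 1 and MEC 3, 0.23 and 0.272 FPKM, were further above it. All of them were under the median of the values above 0 in this length range, 0.906, 1.41 and 1.77 FPKM in MEC 1, 2 and 3. The depth behind these values is unknown.

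Both targeted genes were low in the lines. *Mapk8* was at 23.1, 25.1 and 19.2 FPKM in MEC and at 5.93, 3.12 and 1.37 FPKM in lines 199, 233 and 336. *Mapk9* was at 24.4, 21.5 and 22.1 FPKM in MEC and at 7.62, 3.15 and 3.07 FPKM in the lines. Line 199, with the lowest proliferin level, had the highest level of both among the lines. Line 233, with the highest proliferin level, was above line 336 in both, so the lines did not stand in opposite order throughout. A link between these levels was not tested. Per the study, an immunoblot detected no JNK protein in tumor cells of this genotype. Limma called *Mapk8* lower by a log2 fold change of -2.52 (Benjamini-Hochberg adjusted p = 0.0146) and *Mapk9* by -2.17 (adjusted p = 0.0122), and leaving out any 1 MEC library moved these to between 0.0576 and 0.0728 and to between 0.0558 and 0.0707. A called gene has an adjusted p under 0.05 and a log2 fold change beyond 0.75 in this test of log2(FPKM + 1), MEKO minus MEC.

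Line 199 stood apart from the other lines in markers of cell types. The study describes tumors of this genotype as adenocarcinoma, adenosquamous carcinoma or a mix of both. Its text ties no tumor type to a line number. The summed level of 8 basal epithelial markers was 2276 FPKM in line 199, 10.6 FPKM in line 233 and 58.7 FPKM in line 336, against 1558 to 2855 FPKM in MEC. The keratins *Krt5*, *Krt14* and *Krt17* and the actin *Acta2* carried the sum in line 199, at 608, 521, 394 and 719 FPKM. The contractile gene *Myh11* was at 0.0812 FPKM there against 22.4 to 41.8 FPKM in MEC, *Cnn1* at 16.8 against 47.6 to 75 FPKM and the oxytocin receptor *Oxtr* at 0.0125 against 5.05 to 25.9 FPKM. The summed level of 8 fibroblast markers was 1111 FPKM in line 199, 2.43 FPKM in line 233 and 4.23 FPKM in line 336, against 118 to 207 FPKM in MEC. The collagens *Col1a1* and *Col1a2*, at 600 and 408 FPKM, made up most of that sum in line 199, whereas *Dcn* was at 0.311 FPKM there against 3.29 to 6.62 FPKM in MEC, *Lum* at 0.0264 against 0.507 to 1.28 FPKM and *Thy1* at 11.1 against 14.3 to 19.2 FPKM. The markers of a list thus did not move together in line 199. The 10 luminal markers summed to 1117, 2480 and 2303 FPKM in lines 199, 233 and 336 and to 7879 to 10903 FPKM in MEC. The milk protein genes *Csn2* and *Wap* were at 0 in all 6 libraries. *Csn3*, another milk protein gene of the list, was at 1068, 1184 and 1871 FPKM in MEC. It was at 0.0209, 0.339 and 0.282 FPKM in lines 199, 233 and 336 and was called lower. Proliferin level was highest in line 233, where the summed basal and fibroblast markers were lowest, and the part of cell makeup in this order was not tested. In bulk RNA, fewer cells of a type and less RNA per cell cannot be told apart. Without line 199 the log2 difference was 9.90 for *Prl2c3*, 9.51 for *Prl2c2* and 5.27 for *Prl2c5*.

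Among the other prolactin family genes, *Prl7d1* was called higher in the lines, and no other exceeded 3.32 FPKM in any library. Of the 24 other family genes, 23 had an entry and *Prl2c4* had none. Of these 23, 4 were at 0 in all 6 libraries, 19 were above 0 in at least 1 line and 6 were above 0 in at least 1 MEC library. Only *Prl7d1* reached a mean of 1 FPKM and was tested, and it passed this filter through its values in the lines alone. It was at 0 FPKM in MEC 1, 2 and 3 and at 5.25, 95.4 and 20.9 FPKM in lines 199, 233 and 336. The lines stood in the same order as for the proliferins, and *Prl7d1* amounted to 1.84%, 3.24% and 1.2% of their sum. Its log2 fold change was 4.56 with an SE of 0.92 (limma, Benjamini-Hochberg adjusted p = 0.0303), a size that depends on the pseudocount since MEC were listed at 0. It was 1 of 329 entries called higher, 2.64% of those tested. The adjusted p was 0.11, 0.11 and 0.112 without MEC 1, 2 and 3 and 0.0687 without line 336, so the call rested on having all of these libraries. It also rested on the filter, since with no filter on low values the limma adjusted p was 0.0556.

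The untested family members were detected in some lines at low level. *Prl2c1*, whose transcript was 91% identical to that of *Prl2c3*, was at 0 FPKM in MEC and in line 199, at 2.41 FPKM in line 233 and at 0.394 FPKM in line 336. Reads of *Prl2c5* could contribute to it, since 13.2% of its stretches of 150 bases matched *Prl2c5* with up to 2 differences, and that part was not tested. *Prl8a9* was at 0 FPKM in MEC and at 0.512, 0.0548 and 3.32 FPKM in lines 199, 233 and 336, highest in line 336. *Prl7a2*, at 0 FPKM in MEC, was at 0.047, 0.612 and 1.11 FPKM in the lines, and *Prl7c1* was at 0, 0.0255 and 0 FPKM in MEC and at 0.0614, 0.407 and 0.864 FPKM in the lines. *Prl8a1* was the only one above 0 in all 6 libraries, at 0.377, 0.11 and 0.0879 FPKM in MEC and at 0.429, 0.518 and 0.722 FPKM in the lines. Prolactin itself (*Prl*) and *Prl8a6* were highest in line 199, at 0.804 and 0.884 FPKM, and *Prl* was also at 0.0317 FPKM in MEC 1. The placental lactogen *Prl3d1* was at 0.559, 0 and 0.181 FPKM in lines 199, 233 and 336. *Prl2a1*, at 0 FPKM in MEC, was at 0.183, 0.14 and 0.59 FPKM in the lines. *Prl7a1* was at 0.115, 0 and 0 FPKM in MEC and at 0.11, 0.275 and 0.505 FPKM in the lines, so its groups overlapped. *Prl2b1*, *Prl3a1*, *Prl3b1*, *Prl3d2*, *Prl5a1*, *Prl6a1*, *Prl7b1* and *Prl8a8* did not exceed 0.321 FPKM in any library. None of these followed the order of the lines that the proliferins had except *Prl2c1*.

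**Figure D3:**
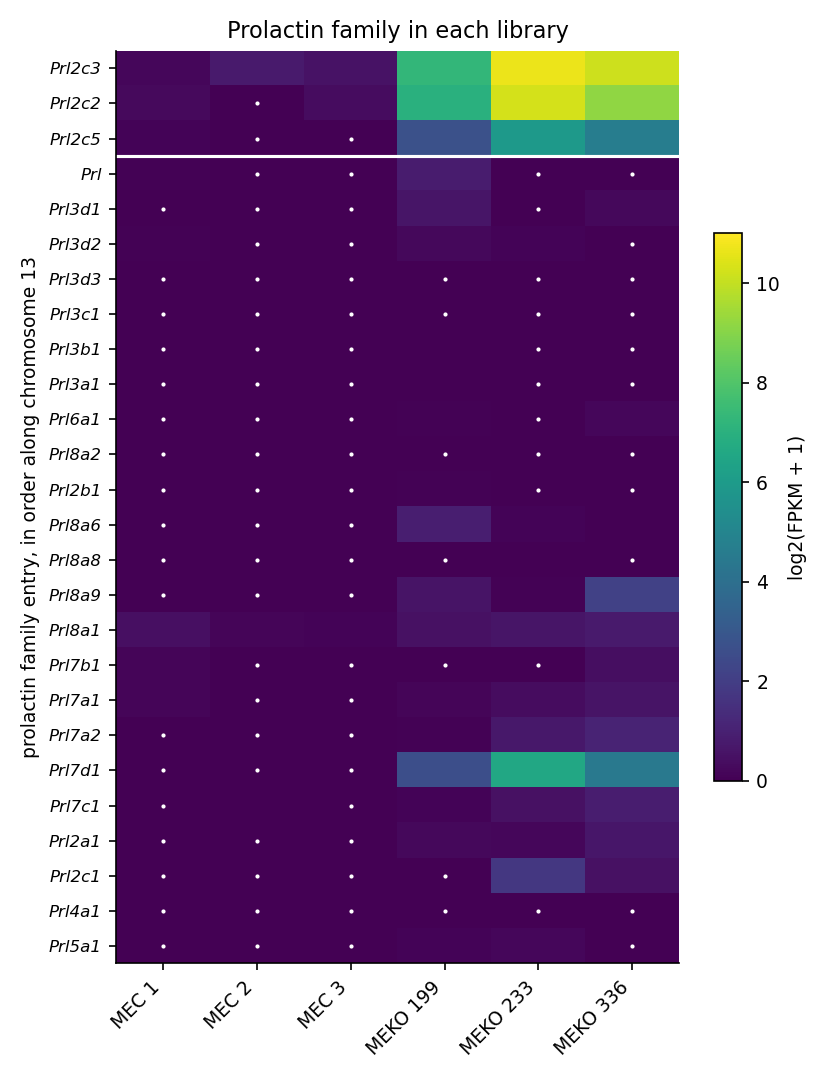
Level of 26 prolactin family entries (rows, in order along chromosome 13) in the 6 libraries (columns), as log2(FPKM + 1), with a white dot where an entry is at 0. The rows above the white line are *Prl2c3*, *Prl2c2* and *Prl2c5*, bright in the MEKO columns, and below it *Prl7d1* is the brightest row, with 95.4 FPKM in line 233.

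*Prl7d1* is a distant relative of the proliferins in its transcript but not in the sequence before its start. The 250 bases upstream of the annotated start, from RefSeq on GRCm38.p6, are shown for *Prl2c3* (chr13:12800080-12800329, minus strand), *Prl2c5* (chr13:13182466-13182715, plus strand) and *Prl7d1* (chr13:27716738-27716987, minus strand), the 3 that are near copies of each other. They run 5′ to 3′, and capitals mark matches on either strand to TGANTCA, which takes in the AP-1 site, to the GATA factor sequence AGATAA, and to the TATA box sequence TATATAA:
Prl2c3: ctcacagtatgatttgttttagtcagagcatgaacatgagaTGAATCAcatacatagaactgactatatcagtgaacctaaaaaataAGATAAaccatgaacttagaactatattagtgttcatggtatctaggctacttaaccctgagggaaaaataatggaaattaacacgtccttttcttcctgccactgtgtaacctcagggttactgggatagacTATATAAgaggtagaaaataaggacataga
Prl2c5: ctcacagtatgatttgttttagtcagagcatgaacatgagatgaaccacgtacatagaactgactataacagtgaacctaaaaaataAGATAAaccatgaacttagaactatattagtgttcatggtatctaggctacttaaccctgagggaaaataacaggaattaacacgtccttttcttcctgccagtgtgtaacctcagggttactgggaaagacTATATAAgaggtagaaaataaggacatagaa
Prl7d1: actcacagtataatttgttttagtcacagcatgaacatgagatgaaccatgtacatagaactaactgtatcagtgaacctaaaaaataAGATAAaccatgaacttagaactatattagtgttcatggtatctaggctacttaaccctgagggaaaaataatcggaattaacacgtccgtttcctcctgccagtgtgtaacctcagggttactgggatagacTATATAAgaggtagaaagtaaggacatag
Against *Prl2c3*, the *Prl2c5* stretch had 10 differences (96% identity) and that of *Prl7d1* had 15 (94% identity), although the *Prl7d1* protein differs from that of *Prl2c3* at 161 of 243 positions. *Prl7d1* has 2 annotated starts, and the other gave 94.8%. The other 19 family genes matched were 47.2% to 53.2% identical to *Prl2c3* over these bases. Identity here comes from the fewest base changes, insertions and deletions. Its level for unrelated stretches was not computed, so these lower values do not show likeness. Among 32851 upstream stretches of 27025 gene symbols, only *Prl2c5* and *Prl7d1* reached 80% identity to that of *Prl2c3*. Of 27 family symbols 22 matched the RefSeq table, and *Prl2c1*, *Prl2c2*, *Prl2c4*, *Prl7b1* and *Prl8a2* did not.

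All 3 stretches hold TATATAA about 30 bases before the start, at 30, 31 and 29 bases in *Prl2c3*, *Prl2c5* and *Prl7d1*, and 3.04% of all stretches hold it. All 3 hold AGATAA at 163, 163 and 162 bases before the start, and 9.99% of all stretches do. TGANTCA was present in *Prl2c3* alone of the 3, at 209 bases before the start, in 7 of the 22 family genes and in 6.75% of all stretches. In *Prl2c3* the match reads TGAATCA, with A where the usual AP-1 site has C or G. TGACGTCA, the cyclic AMP response element, was in 0 of the 22 and in 1.55% of all. These matches describe letters and not binding.

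The list of AP-1 and glucocorticoid receptor genes holds the factors of the classic proliferin control element and genes that glucocorticoids induce. Of its 17 genes, 15 were tested, none was called higher and 5 were called lower. Their median log2 fold change was -0.67, against 0.01 over all entries tested, of which 7.26% were called lower. *Jun*, the JNK substrate of AP-1, was at 53.1, 58.9 and 60.3 FPKM in MEC and at 10.5, 8.91 and 8.15 FPKM in lines 199, 233 and 336, a log2 fold change of -2.53 (limma, Benjamini-Hochberg adjusted p = 0.000927). *Fos*, its usual partner, was at 26, 23.4 and 27.2 FPKM in MEC and at 3.83, 8.02 and 3.5 FPKM in the lines, a log2 fold change of -2.19 (limma adjusted p = 0.00903). In both genes each line was below each MEC library, the opposite direction to the proliferins.

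The other AP-1 genes called lower were *Atf3*, a stress-induced factor, with a log2 fold change of -1.87, and *Batf*, with -1.68. *Dusp1*, a phosphatase of MAP kinases that glucocorticoids induce, had -1.72. *Fosl1*, a partner of JUN that growth factors induce, was at 10.4, 19.3 and 2.38 FPKM in MEC and at 23.2, 62.6 and 29.2 FPKM in the lines. Its 3 lines were all above MEC and in the order of the proliferins, but the log2 fold change of 1.96 did not pass the test (limma, Benjamini-Hochberg adjusted p = 0.132). *Nr3c1*, the glucocorticoid receptor, was at 8.22, 8.27 and 10.3 FPKM in MEC and at 10.5, 17.9 and 11.5 FPKM in the lines, a log2 fold change of 0.50 with an SE of 0.23 that did not pass (limma adjusted p = 0.22). Without MEC 1 the adjusted p of limma rose to 0.0561 for *Fos*, 0.0728 for *Atf3*, 0.0748 for *Batf* and 0.0765 for *Dusp1*, and without MEC 2 to 0.0639 for *Atf3* and 0.0658 for *Dusp1*. *Batf* passed the filter on low values through MEC alone, and without MEC 2 or MEC 3 it fell under the filter and was not tested. The adjusted p of *Jun* stayed under the threshold without any 1 library.

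Genes that receive or relay the signal of prolactin family hormones were not called higher in any case. Of 10 entries, 8 were tested, 3 were called lower and 5 were not called, with a median log2 fold change of -0.21, beside 7.26% called lower and 2.64% called higher over all entries tested. *Igf2r*, the proliferin receptor, was at 19.6, 18.3 and 17.1 FPKM in MEC and at 20.2, 12.7 and 36.8 FPKM in lines 199, 233 and 336. The groups overlapped, and its log2 fold change of 0.21 with an SE of 0.36 did not pass (limma, Benjamini-Hochberg adjusted p = 0.738) and became -0.18 without line 336. *M6pr*, the smaller mannose 6-phosphate receptor, was at 101, 103 and 115 FPKM in MEC and at 57.9, 44.4 and 54.9 FPKM in the lines, a log2 fold change of -1.02 (limma adjusted p = 0.0137).

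*Stat5a*, which relays prolactin receptor signals, was at 9.4, 10.6 and 12.6 FPKM in MEC and at 2.15, 3.03 and 2.65 FPKM in the lines, a log2 fold change of -1.72 (limma, Benjamini-Hochberg adjusted p = 0.00484). *Stat5b*, its close copy, had -0.91 (limma adjusted p = 0.0314). The prolactin receptor *Prlr* appeared only in an entry joined with *Agxt2* and *Gm21973*, at 1.74, 1.64 and 2 FPKM in MEC and at 0.0716, 0 and 0.232 FPKM in the lines. That entry was under the filter and was not tested, and its share from *Prlr* is not known. Without MEC 1, 2 and 3 the limma adjusted p was 0.0736, 0.0691 and 0.0548 for *M6pr* and 0.14, 0.132 and 0.103 for *Stat5b*, which also reached 0.071 without line 233 and 0.0642 without line 336. *Stat5a* kept its call without any 1 library.

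Most other placental genes were at or near 0 in the lines or did not pass the filter. Of 43 trophoblast and placenta genes, 16 were at 0 in all 6 libraries, 10 were tested, 1 was called higher and 4 were called lower, with a median log2 fold change of 0.10. Over all entries tested, 2.64% were called higher and 7.26% lower. *Tpbpa* and *Tpbpb*, markers of the spongiotrophoblast, were at 0 in all 6 libraries. *Hand1*, which drives giant cell formation, was above 0 only in line 233, at 0.0784 FPKM. *Gcm1*, which drives syncytiotrophoblast formation, was at 0.00938, 0 and 0.0212 FPKM in lines 199, 233 and 336 and at 0 in MEC. *Ascl2* was at 0.062, 0.0206 and 0.0234 FPKM in MEC and at 0.114, 0.0766 and 0 FPKM in the lines. The 10 defining trophoblast markers summed to 0.225 to 0.533 FPKM in MEC and to 5.25, 2.83 and 8.47 FPKM in lines 199, 233 and 336. *Plac1*, a placental gene on the X chromosome, set the order of the lines in this sum, at 3.36, 0.155 and 5.75 FPKM, and without it the other 9 summed to 1.9, 2.67 and 2.72 FPKM.

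*Eomes*, a regulator of trophoblast stem cells that other lineages use as well, was the entry called higher. It was at 0.0869, 0.0394 and 0.0349 FPKM in MEC and at 1.24, 2.45 and 2.64 FPKM in the lines, a log2 fold change of 1.53 (limma, Benjamini-Hochberg adjusted p = 0.0242). *Eomes* passed the filter through its values in the lines alone. With no filter on low values its limma adjusted p was 0.0184. The entries called lower were *Elf5* with a log2 fold change of -5.01, the joined entry of 9230102O04Rik and *Gata3* with -2.53, *Tfap2c* with -2.20 and *Faim2* with -1.93. *Elf5* and *Faim2*, under 1 FPKM in each line, passed the filter through MEC alone. *Elf5*, *Gata3* and *Tfap2c* also work in mammary epithelium, and *Elf5* is on the luminal list too. Without MEC 1, 2 and 3 the limma adjusted p was 0.107, 0.0993 and 0.0786 for *Eomes*, which fell under the filter on low values without line 233 or line 336 and was then not tested, and 0.134, 0.128 and 0.158 for *Gata3*, which also reached 0.0919 without line 233. For *Faim2* it was 0.071 and 0.059 without MEC 1 and MEC 2.

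Factors and receptors of blood vessel growth, the process in which proliferins are known to act, included 1 called gene. Of 13 entries, 11 were tested, none was called higher and 1 was called lower, with a median log2 fold change of -0.38. Over all entries tested 7.26% were called lower, so a single call among 11 is near the background share. *Pgf*, placental growth factor, was at 14.9, 17.5 and 16 FPKM in MEC and at 1.24, 0.361 and 3.5 FPKM in lines 199, 233 and 336, a log2 fold change of -2.84 (limma, Benjamini-Hochberg adjusted p = 0.0133). Leaving out MEC 1, 2 and 3 moved that adjusted p to 0.0682, 0.0679 and 0.061. *Pgf* shares its placental origin with the proliferins, but each line was below each MEC library.

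**Figure D4:**
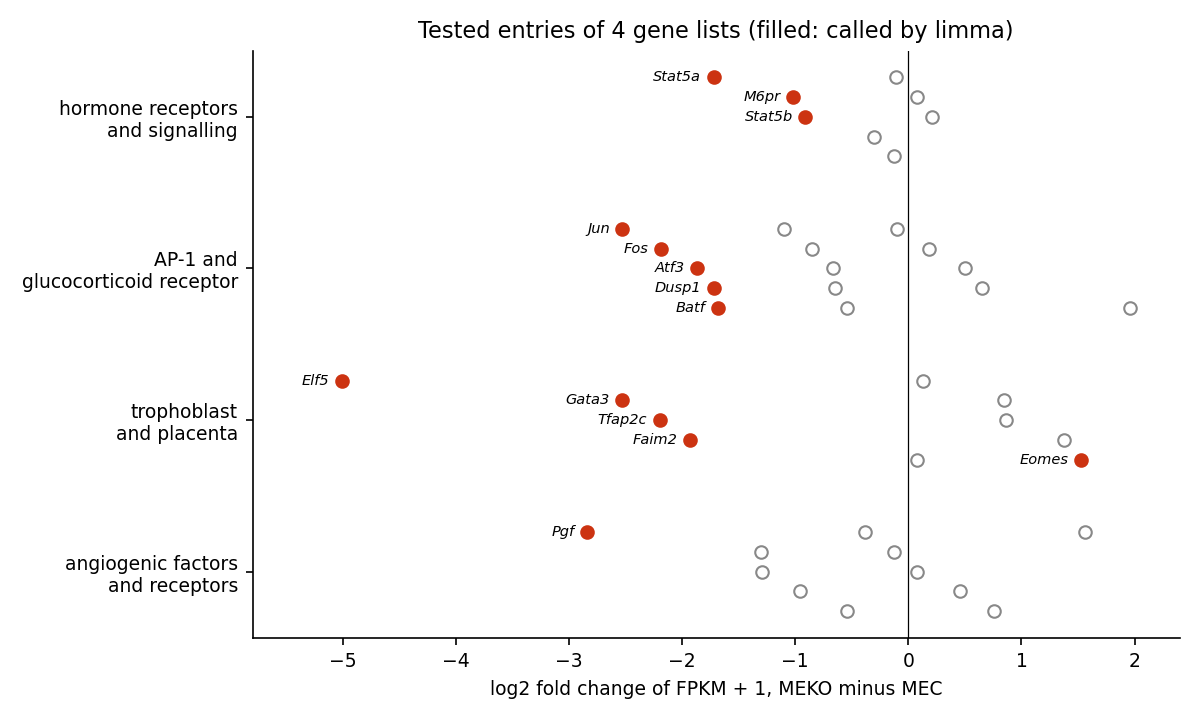
Log2 fold change (MEKO minus MEC, of FPKM + 1) of each tested entry in 4 gene lists, filled red and named where called by limma and open grey where not. The points are spread vertically within a list for legibility alone, and *Eomes*, at 1.53, is the only filled point to the right of 0.

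The genes around the proliferins on chromosome 13 were examined to see whether the region as a whole stood high. Within 1 Mb of the trio, 30 other entries were found, 11 of them at 0 in all 6 libraries and 13 tested. The median of their log2 ratios to the MEC mean was -0.03, 0.12 and 0.19 in lines 199, 233 and 336, against 0.01, 0.00 and 0.02 over all entries tested. *Ero1lb*, 179420 bases from *Prl2c3*, had log2 ratios of -0.42, 1.15 and 1.20 in the lines and *Heatr1*, 350527 bases away, had 1.19, 0.39 and 0.34. Both had a log2 fold change of 0.64 that did not pass (limma, Benjamini-Hochberg adjusted p = 0.399 and 0.202), and in *Heatr1* each line was above each MEC library. The farther *Tbce*, *Ggps1* and *Arid4b* had log2 fold changes of 0.07, 0.02 and -0.04. These 5 were named after their values were seen. *Gm2423*, the nearest tested entry, 40238 bases from *Prl2c5*, had -0.28 (limma, Benjamini-Hochberg adjusted p = 0.517).

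Of the 13 tested neighbours, 2 were called higher and none lower, beside 2.64% called higher over all entries tested, and these 2 lie on opposite sides of the trio. *Gpr137b*, which encodes a lysosomal membrane protein and lies 165697 bases from *Prl2c5*, was at 11.9, 10.5 and 8.88 FPKM in MEC and at 41.9, 108 and 134 FPKM in lines 199, 233 and 336, a log2 fold change of 2.92 (limma, Benjamini-Hochberg adjusted p = 0.0125). Its pseudogene *Gpr137b-ps*, 140428 bases from *Prl2c3*, was at 1.35, 0.745 and 0.934 FPKM in MEC and at 3.69, 9.12 and 12.4 FPKM in the lines, with a log2 fold change of 2.11 (limma adjusted p = 0.0269). A gene and its pseudogene can share reads, so their values are not independent. Both were highest in line 336, not in line 233. Without MEC 1, 2 and 3 the limma adjusted p was 0.059, 0.0616 and 0.0608 for *Gpr137b* and 0.092, 0.109 and 0.102 for *Gpr137b-ps*, which also reached 0.0707 without line 233 and 0.0556 without line 336. *Nid1*, a basement membrane gene named after its values were seen, had log2 ratios of 1.67, -3.68 and -2.51 in lines 199, 233 and 336, and its groups overlapped.

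**Figure D5:**
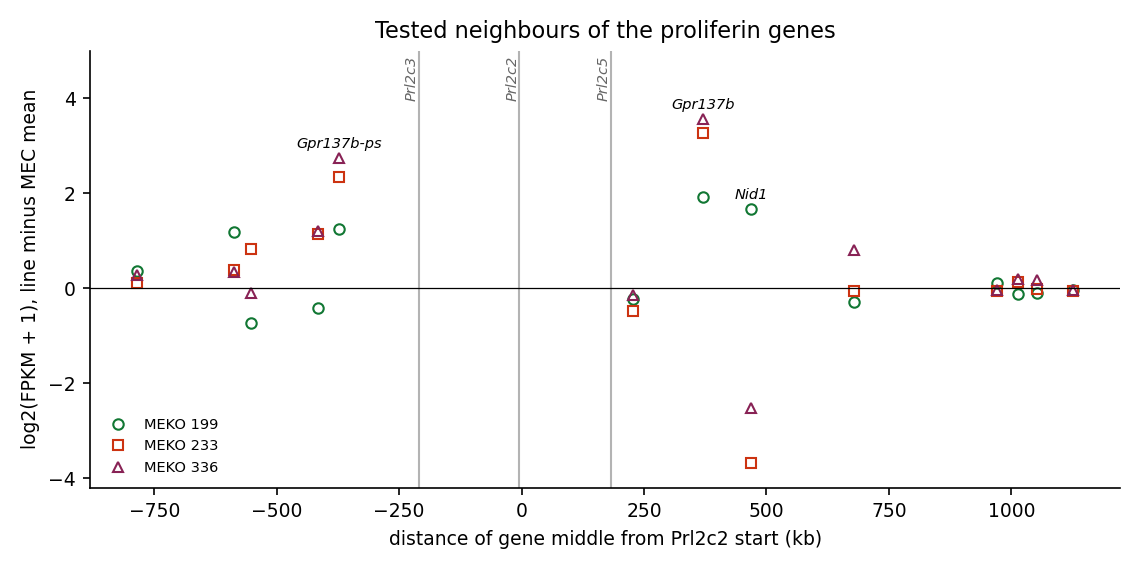
Log2 ratio of FPKM + 1 to the MEC mean in each MEKO line for the 13 tested neighbours, against the distance of the gene's middle from the start of *Prl2c2* in kb. Grey lines mark the proliferin genes, and *Gpr137b* and *Gpr137b-ps* are above 1 in all 3 lines.

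The entries whose pattern over the 6 libraries was most like that of the summed proliferins were *Igf2bp1*, with Pearson's r of 0.998, and *Gchfr*, *Psca*, *Upk3bl* and *Ptgs1*, each with 0.997. They were ranked among 12458 entries on log2(FPKM + 1), and with 2 groups of 3 libraries such a coefficient rests mostly on the gap between the groups. *Igf2bp1*, which encodes an RNA-binding protein of embryonic tissues, was at 0.174, 0.0617 and 0 FPKM in MEC and at 3.76, 7.67 and 6.78 FPKM in lines 199, 233 and 336. *Ptgs1*, which encodes cyclooxygenase 1, was at 1.9, 2.83 and 4.14 FPKM in MEC and at 62.5, 191 and 161 FPKM in the lines. In both, as in the other entries picked, the lines stood in the order of the proliferins, an order that picking by likeness favors.

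*Upk3bl*, which encodes a uroplakin-like membrane protein, was at 0.642, 1.04 and 0.459 FPKM in MEC and at 40.4, 178 and 85.8 FPKM in lines 199, 233 and 336. *Gchfr*, which encodes a regulator of GTP cyclohydrolase, was at 7.85, 17.2 and 14.9 FPKM in the lines, and *Psca*, a stem cell antigen, was at 4.85, 11.2 and 7.38 FPKM. *Prl7d1* stood at rank 140 of the same 12458, with r of 0.963.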

How the data were processed

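RNA-seq was available for 6 libraries, 3 MEC preparations and 3 MEKO lines, grouped by sample title and genotype label. Per the study's methods and the labels, 150 bp paired-end reads were trimmed with Trimmomatic, placed on mm10 (GRCm38) with Bowtie2 and TopHat2 2.0.14 and quantified per gene with Cufflinks 2.2.1. The deposited table gives the authors' FPKM (scaled to library size and transcript length) for 37755 entries, of which 2 are blank. Summed FPKM was 557991 to 638365 per library, and 17343 to 18741 entries were above 0. Read numbers are not held in FPKM, so depth is unknown and no interval or floor was computed.

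Entries were paired by symbol with GENCODE M21 (34643 symbols) for position. The limma package 3.58.1 (R 4.3.3) was fitted to log2(FPKM + 1), MEKO against MEC, with a mean-variance trend, over 12461 entries with a mean of at least 1 FPKM, adjusted by Benjamini-Hochberg. A call needed an adjusted p under 0.05 and a log2 fold change beyond 0.75. Of these entries 1234 (9.9%) were called. The script was tested on simulated data. Each library is a separate preparation or line. No sequencing batch is labelled.

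Named were all member entries, other family entries above 0, preset receptor, AP-1, glucocorticoid receptor, trophoblast and JNK genes, up to 5 called entries per list and direction, called neighbours and the 5 entries most like the summed members. Others are said to be named after their values were seen. The members and gene lists were chosen with earlier results of these data known. Alternatives were another pseudocount, filters, scalings, no trend, array weights, no fold threshold, and each library left out. Transcripts and promoter stretches were compared by edit distance, and no identity level for unrelated sequence was computed.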

Additional observations from a re-analysis of the deposited data

How the results depend on the processing

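No paired analysis was possible because MEC and the lines share no replicate number. The members' log2 difference depended on how low MEC values were handled: with a pseudocount of 0.1 it was 7.39 for *Prl2c5* and 10.93 for *Prl2c2*, and as a ratio of mean FPKM 10.14 for *Prl2c5*, 11.08 for *Prl2c3* and 11.92 for *Prl2c2*. The summed entries gave 9.44, against 4.41 for *Prl2c5*. Leaving out a library gave 3.65 to 5.27 for *Prl2c5*, 8.20 to 9.90 for *Prl2c3* and 7.87 to 9.51 for *Prl2c2*.

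The count of all entries called was 738 with a filter at a mean of 5 FPKM, 1978 with array weights and 259 to 1966 with a library left out, lowest without MEC 1 and highest without line 199. Entries called higher were 26.7% of calls, or 37.9% with quantile normalization. With no filter, 0 other prolactin family genes and 1 neighbour were called. At a mean of 5 FPKM, 1 neighbour and 3 trophoblast genes were called, and with array weights 3 angiogenic genes. With a library left out, calls ranged from 0 to 1 for the prolactin family, 1 to 4 for receptors, 1 to 6 for AP-1 and glucocorticoid receptor genes, 2 to 5 for trophoblast genes, 0 to 2 for angiogenic genes and 0 to 4 for neighbours. *Igf2r* ranged from -0.18 without line 336, a reversal, to 0.55 without line 233. Of the alternatives for single genes, 291 kept the direction and side of the threshold and 49 lost the call. Leaving out any library gives the test fewer samples, but calls fell furthest without a MEC library. They were 259, 301 and 477 without MEC 1, 2 and 3 and 1966, 1029 and 954 without lines 199, 233 and 336. The reason for this gap was not tested. Depth, unknown here, limits values under 1 FPKM.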
